A study of Mus musculus with 16 samples.

Results

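The genes described here carry signals of oncostatin M, leukaemia inhibitory factor (LIF) and their relatives to the transcription factor STAT3, in the hippocampus of mice with altered CREB activity. The members were the receptor subunits Osmr, Lifr, Il6st and Il6ra, the ligands Cntf and Lif, the kinase Jak2, the transcription factor Stat3, and the feedback inhibitors Socs2 and Socs3. All probe sets that the platform annotation assigned to 1 of these 10 symbols alone were taken, which gave 29 probe sets of 9 genes, out of 45037 probe sets on the array, which name 18193 genes. The only Cntf probe set is shared with other genes, so no value is given for Cntf. A filter on low values, met by a probe set above 99.1 (the median of all intensities) on at least 2 arrays, left 23 of the 29 probe sets, of 8 genes, and 27044 in all. Both Lif probe sets fell below it.

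Gene expression was measured on 16 Affymetrix Mouse Genome 430 2.0 arrays, each hybridised with hippocampal RNA pooled from 3 to 4 mice. CREB is a transcription factor that answers cAMP and calcium signals. VP16-CREB is a constitutively active fusion of CREB with a viral activation domain, while A-CREB, a dominant negative form, binds CREB family members and prevents their contact with DNA. The values are MAS5 intensities on a linear scale, which share 1 trimmed mean on all arrays. The VP16-CREB pools at 3 weeks off dox (genotype tetO-VP16-CREB, 3 pools, mice 6 weeks old) came from mice raised with doxycycline (dox), which holds the tetO transgene silent, until it was withdrawn for 3 weeks. Their 3 control pools were WT littermates under the same schedule. The VP16-CREB pools at 1 week off dox (2 pools, mice 3 weeks old) and their WT littermates (2 pools) had dox withdrawn for 1 week. The A-CREB pools (genotype TetO-A-CREB-95, 3 pools, mice 6 weeks old) and their WT littermates (3 pools) were raised without dox. All mice were of the C57BL/6J background, and the A-CREB genotype is given as C57BL6 F1/J. The transgenic mice were bitransgenic, and the driver that sets in which cells the transgene is on is not given in the sources used here. Age at withdrawal, age of the mice and median array intensity differed between the VP16-CREB cohorts along with time off dox, so these cannot be told apart. In such bulk RNA, fewer cells of a type and less RNA per cell cannot be told apart either.

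Cytokines of this family bind receptor complexes that share the signal-transducing chain gp130, the product of Il6st. Oncostatin M signals through OSMR with gp130, LIF through LIFR with gp130, and ciliary neurotrophic factor (CNTF) through LIFR and gp130 with a further alpha chain. JAK kinases bound to these receptors phosphorylate STAT3, which enters the nucleus and activates its target genes, among them Socs3. SOCS3 binds gp130 and the kinase and shuts the signal off, while SOCS2 is best known for restraining growth hormone signalling. In the brain, STAT3 is known as a transducer of the astrocyte response to injury.

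Of the 3 member genes with a called probe set, Socs3 alone held a match to a motif searched for, and its promoter is shown for that reason. Socs3 is also a textbook STAT3 target. The window runs from 250 bases before to 50 bases after the start site, at chr11:117969317-117969616 on the minus strand (RefSeq, GRCm38.p6). The capitals mark a match to the STAT motif TTCNNNGAA, whose first base lies at -154 from the start site.
Socs3: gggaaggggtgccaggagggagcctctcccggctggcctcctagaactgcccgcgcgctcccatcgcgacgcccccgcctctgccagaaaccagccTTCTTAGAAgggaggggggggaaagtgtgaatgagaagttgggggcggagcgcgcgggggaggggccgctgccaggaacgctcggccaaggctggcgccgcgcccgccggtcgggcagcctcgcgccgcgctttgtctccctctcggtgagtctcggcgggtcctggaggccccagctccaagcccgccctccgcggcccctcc
This palindromic motif, searched on both strands, was found in 2726 of 32851 promoter windows of the same length (8.30%). Of the 10 windows of 9 members in the RefSeq table, that of Socs3 alone held it. None of the 10 held the full CRE motif TGACGTCA, present in 1.79% of all windows. A match of letters does not show binding.

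The cohort with VP16-CREB at 3 weeks stood apart from the other cohorts, with median intensities of 118.9 to 129.3 on its 6 arrays, against 75.0 to 93.2 on the other 10. Each transgenic group was set against littermates of its own cohort. Markers of hippocampal neurons passed the filter (6 of 6 listed). Of these 3, namely C1ql2, Dsp and Prox1, were called lower in VP16-CREB pools at 3 weeks, beside 0.651% of all probe sets. Differences are log2(intensity + 10) of transgenic minus control pools, folds are of that quantity, and a probe set was called at a limma adjusted p under 0.05 over all 27044 probe sets.

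At 3 weeks off dox, Osmr, Stat3 and Socs3 were higher in VP16-CREB hippocampus than in littermates, while the receptor Lifr and the kinase Jak2 were not called in either direction. Of the 23 member probe sets tested, 6 were called higher (26.1%) and 0 lower, where 3.93% of all probe sets were called, 3.28% higher and 0.651% lower. The 6 belonged to Osmr (2), Stat3 (2) and Socs3 (2). The median log2 difference of the 23 was 0.53, beside -0.01 over all probe sets tested. In 13 of the 23 (56.5%) every VP16-CREB pool lay above every control pool, which held for 14.9% of all probe sets. Osmr 1418675_at and the Socs3 probe sets 1416576_at and 1456212_x_at were above 99.1 on only 4 to 6 arrays, the 3 VP16-CREB pools of 3 weeks included, so these counts are a description of the list.

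**Figure D1:**
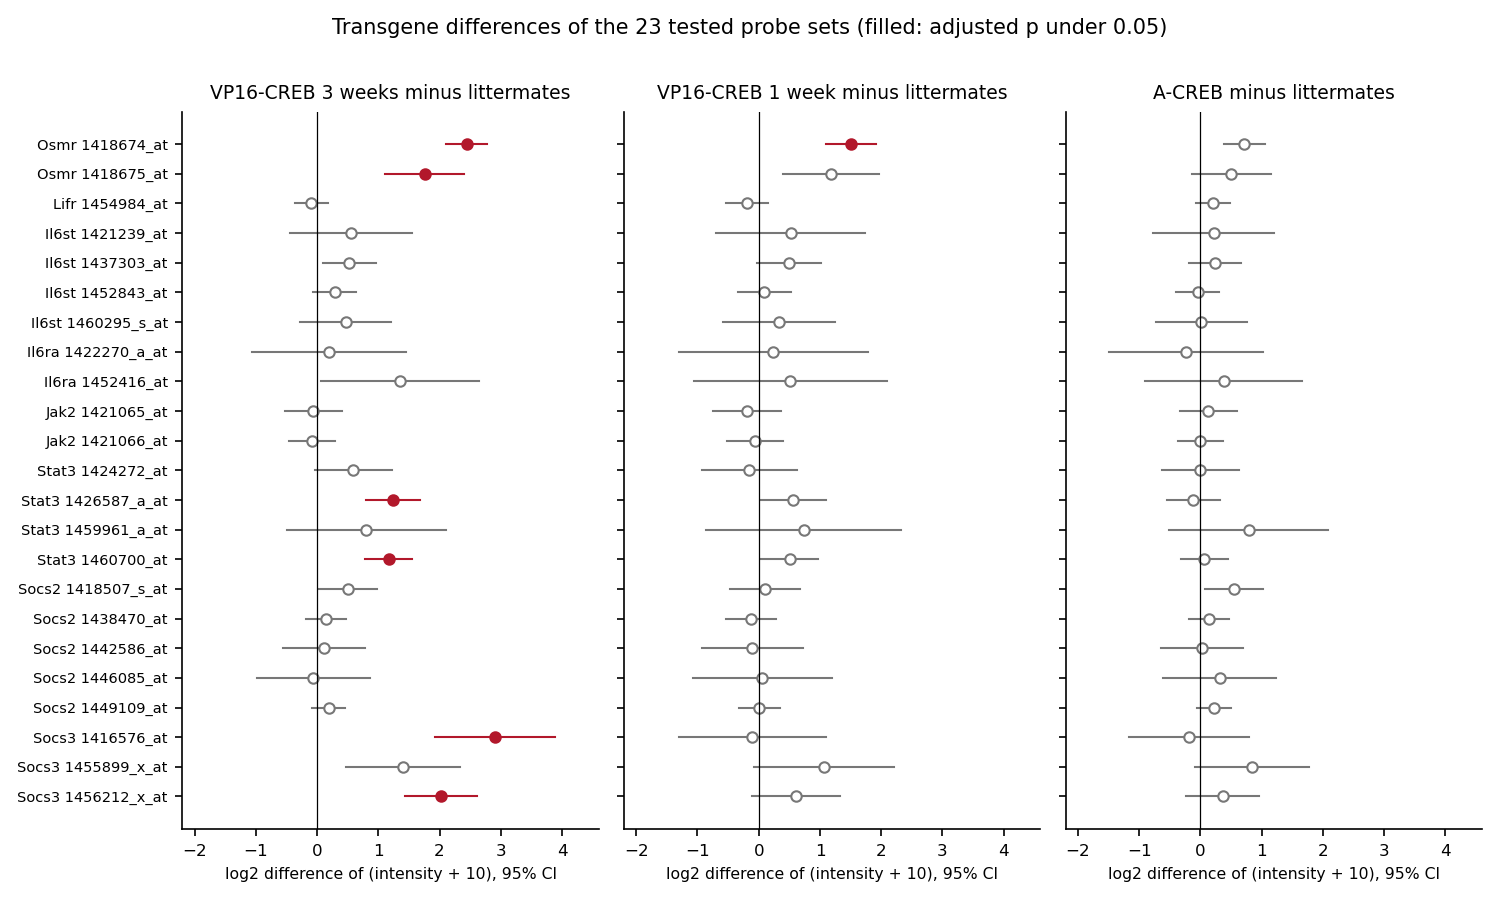
Log2 differences (x axis, transgenic minus littermates, log2 of intensity plus 10) of the 23 tested member probe sets (y axis) in each cohort, with 95% confidence intervals and filled points for an adjusted p under 0.05. At 3 weeks 6 probe sets of Osmr, Stat3 and Socs3 are filled, at 1 week 1 of Osmr, and in A-CREB none.

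Osmr, the receptor chain specific to oncostatin M (and interleukin 31), had the smallest adjusted p of the members. Its probe set 1418674_at gave intensities of 787, 959 and 1028 in the VP16-CREB pools at 3 weeks, against 153, 154 and 177 in littermate pools. The lowest VP16-CREB pool was thus far above the highest control pool. The log2 difference was 2.44 (SE 0.16, 5.44-fold, adjusted p = 1.70e-06, n = 3 pools each). The dimmer 1418675_at gave 154, 157 and 145 in VP16-CREB pools, against 29.2, 54.1 and 33.8 in control pools, a difference of 1.76 (SE 0.30, adjusted p = 0.00328). A further probe set, 1459217_at, stayed between 3.22 and 57.6 on all 16 arrays and was not tested.

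The other receptor chains moved less, and none of their probe sets was called. Lifr 1454984_at, the chain that LIF and CNTF use, read 1548, 1607 and 1315 in VP16-CREB pools at 3 weeks, against 1562, 1655 and 1533 in control pools. The groups overlapped, and the difference of -0.09 had a 95% interval of -0.37 to 0.18. The remaining Lifr probe sets never passed 87.6.

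Il6st, which encodes the shared chain gp130, was measured by 4 probe sets, with differences of 0.29 to 0.56 at 3 weeks and adjusted p of 0.218 to 0.728. The smallest p fell on 1437303_at, with 478, 666 and 579 in VP16-CREB pools, against 417, 362 and 398 in control pools (difference 0.53, SE 0.20). Those pools did not overlap, yet the difference missed the threshold. The VP16-CREB pools also lay above all control pools at 1421239_at (105 to 146 against 73.2 to 100) and at 1452843_at (870 to 981 against 684 to 811). At 1460295_s_at the groups overlapped. The brightest, 1452843_at, averaged 916 ± 58.0 in VP16-CREB pools and 750 ± 63.8 in littermate pools (SD, n = 3 each).

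Il6ra, the receptor chain specific to interleukin 6, was near the lower limit of measurement, with both probe sets above 99.1 on 5 arrays. Its 1452416_at read 66.6, 179 and 142 in VP16-CREB pools at 3 weeks, against 82.4, 3.63 and 93.9 in control pools. The difference of 1.36 (SE 0.60, adjusted p = 0.335) rested on overlapping groups, and it was 0.41 without the control pool at 3.63.

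The ligands were dim throughout. Lif 1421207_at read 56.1, 48.5 and 128 in VP16-CREB pools at 3 weeks, against 27.6, 59.8 and 54.8 in control pools, and the 128 was the only value above 99.1 on the 16 arrays. The other Lif probe set, 1450160_at, lay between 1.69 and 38.6. Neither was tested.

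**Figure D2:**
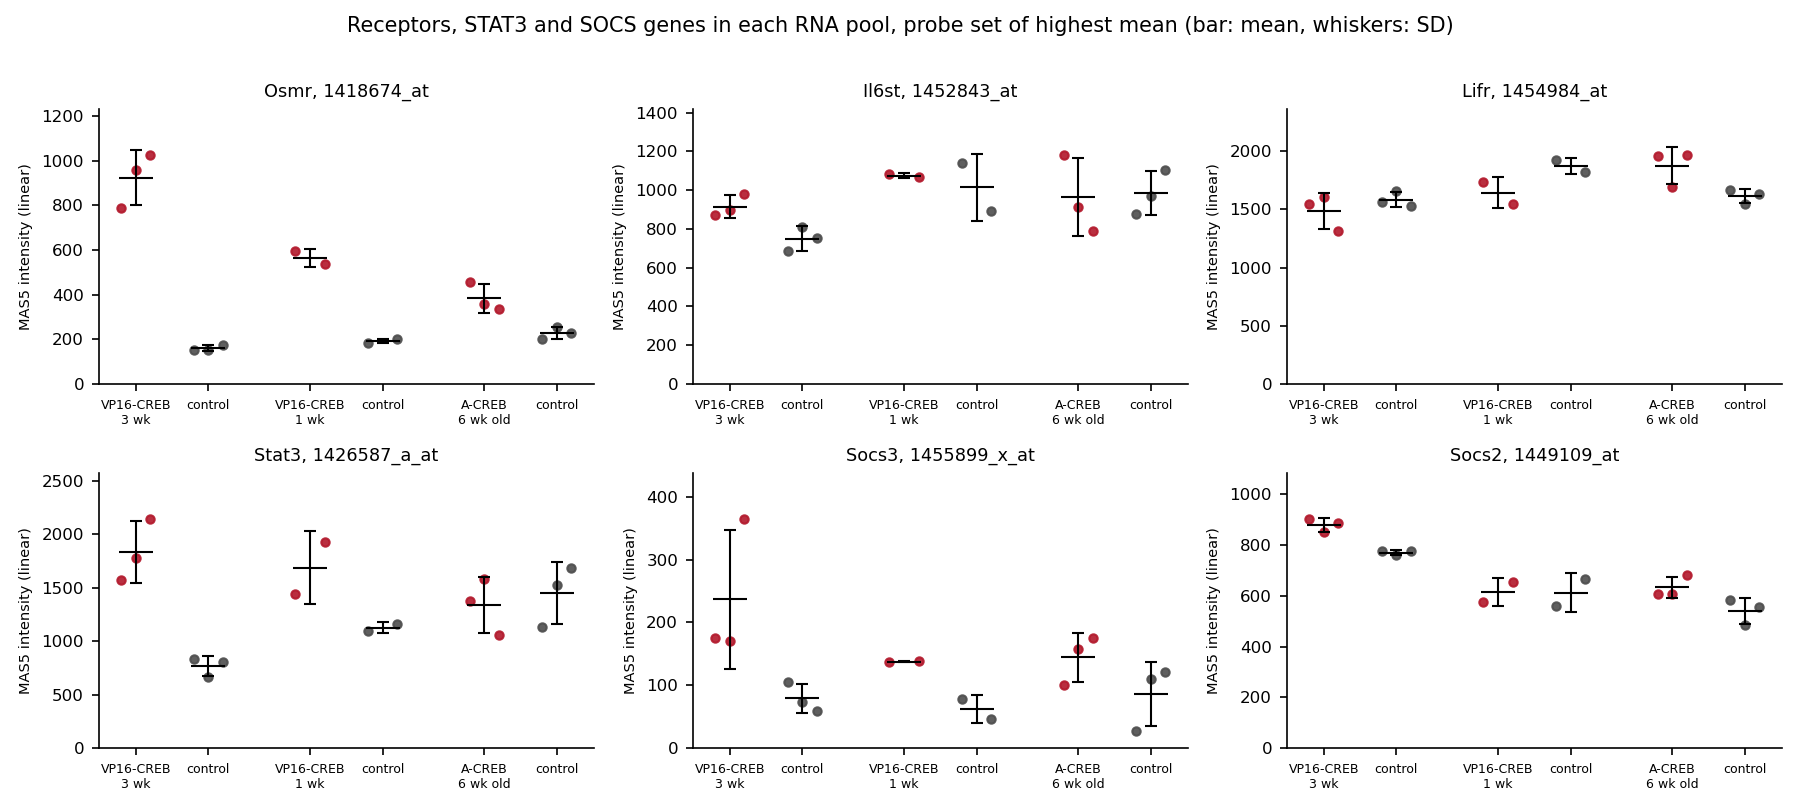
MAS5 intensity (y axis, linear) of one probe set per panel for the members, with each point an RNA pool, the bar the group mean and the whiskers its SD, transgenic pools left of their littermates. Osmr 1418674_at stands at 787 to 1028 in VP16-CREB pools at 3 weeks, above 153 to 177 in control pools, while Lifr 1454984_at overlaps between these groups.

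Jak2, a kinase that docks on gp130, showed no called difference. Its 1421066_at averaged 772 ± 93.2 in VP16-CREB pools at 3 weeks and 815 ± 64.5 in control pools (difference -0.08, 95% interval -0.46 to 0.29), and 1421065_at differed by -0.06.

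Stat3 rose at both of its bright probe sets. The probe set 1426587_a_at read 1573, 1778 and 2141 in VP16-CREB pools at 3 weeks, against 832, 663 and 806 in control pools (difference 1.24, SE 0.20, 2.36-fold, adjusted p = 0.00245). The probe set 1460700_at read 1192, 1105 and 1388 in VP16-CREB pools, against 423, 684 and 535 in control pools (difference 1.17, SE 0.18, 2.25-fold, adjusted p = 0.00139). Neither pair of groups overlapped, and both folds were near each other. The dim Stat3 probe sets were not called. Of these, 1424272_at read 217, 149 and 161 in VP16-CREB pools, against 103, 135 and 99.5 in control pools (difference 0.59, adjusted p = 0.416), and 1459961_a_at was above 99.1 on 3 arrays.

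Socs3 was measured at low intensities, and 2 of its 3 probe sets were called. Its 1416576_at read 112, 181 and 359 in VP16-CREB pools at 3 weeks, against 10.4, 23.8 and 19.4 in control pools (difference 2.91, SE 0.45, 7.51-fold, adjusted p = 0.00180). On this scale a control level near the added 10 makes the fold a low estimate of the ratio of intensities. The probe set 1456212_x_at read 240, 215 and 523 in VP16-CREB pools, against 77.5, 65.6 and 58.0 in control pools (difference 2.02, SE 0.27, 4.06-fold, adjusted p = 0.000568). The third, 1455899_x_at, read 176, 171 and 364 in VP16-CREB pools, against 105, 73.9 and 59.6 in control pools, and the difference of 1.41 (SE 0.43) had an adjusted p of 0.107. All 3 probe sets were without overlap. The x in 2 of these names marks probes that Affymetrix lists as able to bind other transcripts.

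**Figure D3:**
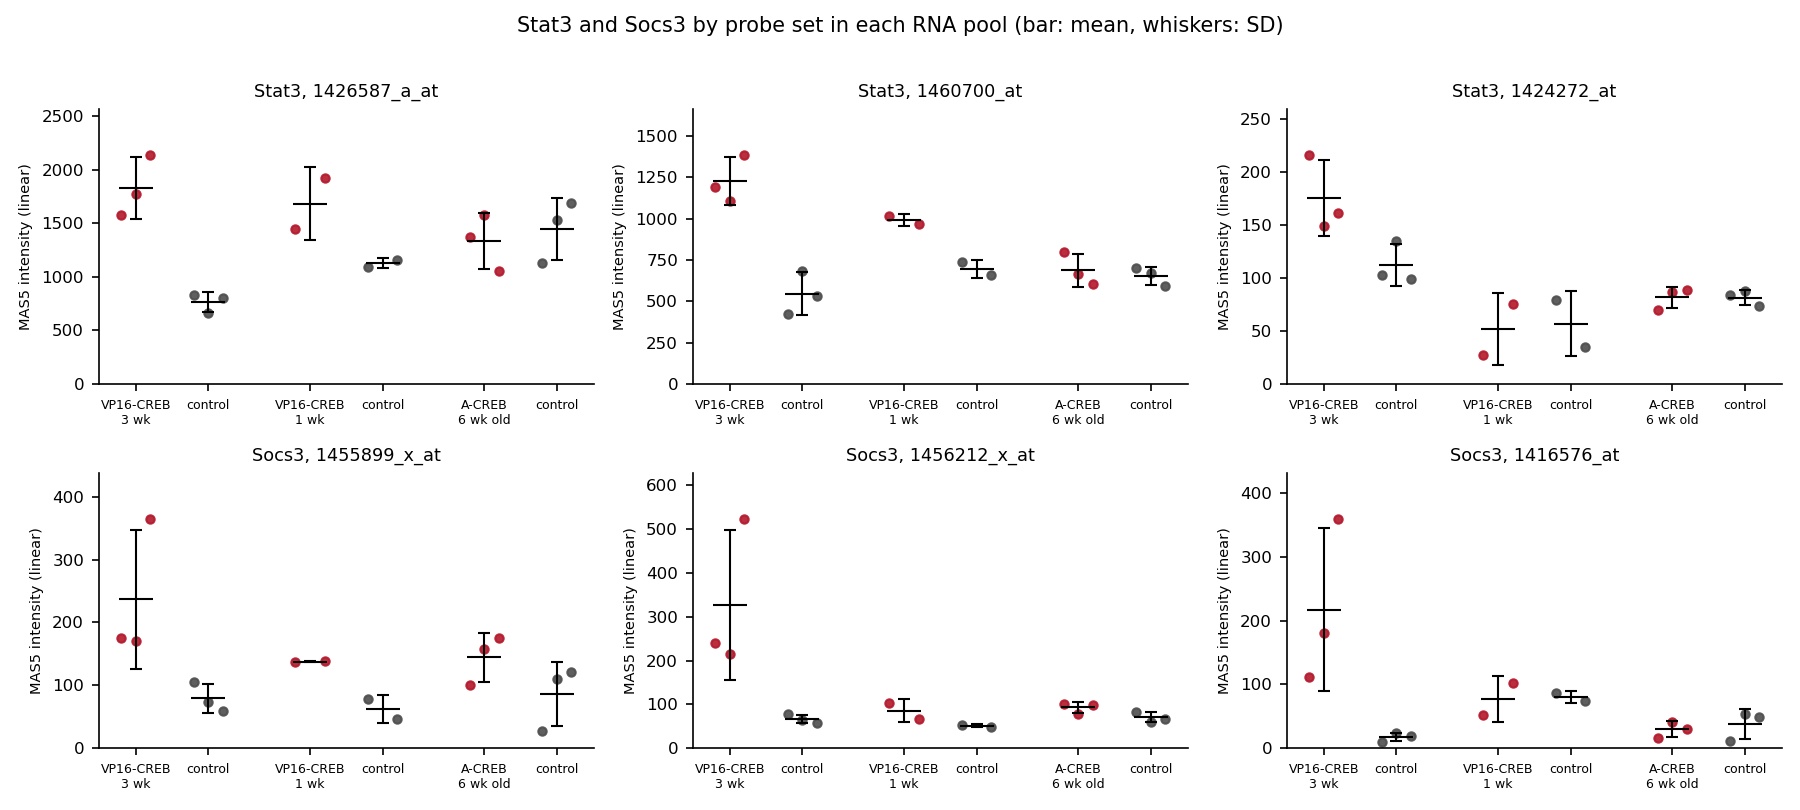
MAS5 intensity (y axis, linear) of 3 probe sets of Stat3 and 3 of Socs3 in every RNA pool, with group means (bars) and SD (whiskers), transgenic pools left of littermates. VP16-CREB pools at 3 weeks lie above all of their control pools in the 6 panels, and the third of these pools is the highest in the Socs3 panels.

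The third VP16-CREB pool at 3 weeks had the highest intensity of its group in 5 of the 6 called probe sets, and the second pool in the other. Without the third pool the 6 calls still stood, as they did without each of the other 5 arrays of the cohort.

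Socs2 was not called at any probe set. Its 1418507_s_at read 983, 723 and 933 in VP16-CREB pools at 3 weeks, against 587, 589 and 656 in control pools (difference 0.51, SE 0.22, adjusted p = 0.316). The groups did not overlap. The probe set 1449109_at, with 901, 849 and 884 in VP16-CREB pools, against 774, 759 and 775 in control pools, differed by 0.19 and also without overlap. The remaining 3 tested Socs2 probe sets differed by -0.06 to 0.14.

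At 1 week off dox, Osmr was the only member called. Of the 23 probe sets, 1 was called higher (4.35%) and 0 lower, beside 0.237% of all probe sets, 0.218% higher and 0.0185% lower. At an unadjusted p under 0.05 there were 4 member probe sets, beside 5.27% of all. The median log2 difference was 0.24 for the members and 0.02 over all. Osmr 1418674_at read 594 and 537 in VP16-CREB pools, against 185 and 200 in littermate pools (difference 1.51, SE 0.19, 2.84-fold, adjusted p = 0.00504, n = 2 pools each). That call was lost without the first VP16-CREB pool, where the adjusted p was 0.0866 at a difference of 1.43, and with only the 4 compared arrays in the fit (0.278). Osmr 1418675_at read 105 and 141 in VP16-CREB pools, against 48.2 and 48.2 in control pools (difference 1.18, adjusted p = 0.453).

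Stat3 did not reach the threshold at 1 week. The values of 1426587_a_at were 1444 and 1927 in VP16-CREB pools and 1093 and 1161 in control pools (difference 0.56, adjusted p = 0.880). Those of 1460700_at were 1018 and 967 in VP16-CREB pools and 736 and 659 in control pools (difference 0.50, adjusted p = 0.859). In both the VP16-CREB pools lay above the control pools, which held for 10 of the 23 member probe sets (43.5%) and for 15.7% of all probe sets.

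The Socs3 probe sets disagreed with each other at 1 week. The values of 1416576_at were 52.2 and 103 in VP16-CREB pools and 87.0 and 73.5 in control pools, a difference of -0.10. In contrast 1455899_x_at read 137 and 138 in VP16-CREB pools, against 77.7 and 46.3 in control pools (difference 1.07, adjusted p = 1.00). The third, 1456212_x_at, differed by 0.61. Lifr 1454984_at was the 1 member probe set whose VP16-CREB pools both lay below the control pools, at 1736 and 1547 against 1925 and 1824 (difference -0.19, 95% interval -0.53 to 0.14).

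The difference of differences between 3 weeks and 1 week was called for 0 of the 23 member probe sets, with 4 at an unadjusted p under 0.05 (4.99% of all probe sets). For all probe sets 0.0037% were called. The largest was Socs3 1416576_at, whose effect at 3 weeks exceeded that at 1 week by 3.01 (SE 0.72, adjusted p = 0.302). For Osmr 1418674_at it was 0.94 (SE 0.25, adjusted p = 0.431). An order between the 2 times is thus not shown for the members after adjustment.

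In A-CREB hippocampus no member was called, as was the case for all 27044 probe sets (0%) with limma. At an unadjusted p under 0.05 there were 2 member probe sets, beside 4.33% (1171) of all. These were Osmr 1418674_at and Socs2 1418507_s_at. The median log2 difference of the members was 0.21, beside 0.00 over all probe sets.

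Osmr 1418674_at read 458, 359 and 334 in A-CREB pools, against 203, 255 and 227 in littermate pools. The groups did not overlap, and the difference was 0.72 (SE 0.16, 95% interval 0.38 to 1.06, adjusted p = 0.554). Socs2 1418507_s_at read 516, 528 and 634 in A-CREB pools, against 390, 375 and 367 in control pools (difference 0.55, SE 0.22, adjusted p = 1.00), also without overlap. In all, 4 of the 23 member probe sets had A-CREB pools wholly above control pools (17.4%), beside 3.54% of all probe sets, with Lifr 1454984_at and Socs2 1449109_at as the others.

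Stat3 and Socs3 overlapped between A-CREB and control pools. Stat3 1426587_a_at read 1375, 1578 and 1056 in A-CREB pools, against 1131, 1528 and 1688 in control pools (difference -0.12, 95% interval -0.55 to 0.32). Socs3 1416576_at read 16.9, 41.9 and 29.8 in A-CREB pools, against 11.6, 54.1 and 48.9 in control pools (difference -0.18, 95% interval -1.16 to 0.80). The other Socs3 probe sets had positive differences that were not called. The values of 1455899_x_at were 101.2, 158 and 175 in A-CREB pools and 27.4, 111 and 121 in control pools (difference 0.85, SE 0.43, adjusted p = 1.00). That difference was the highest of the members in A-CREB and lay between 0.27 and 1.17 with an array left out. Those of 1456212_x_at were 101.4, 79.0 and 99.0 in A-CREB pools and 82.8, 60.5 and 67.7 in control pools (difference 0.36, SE 0.27, adjusted p = 1.00).

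The effect of VP16-CREB at 3 weeks exceeded that of A-CREB for 3 of the 23 member probe sets (13.0%), beside 0.887% of all probe sets called, 0.828% in that direction. At an unadjusted p under 0.05 there were 6, beside 8.69% of all. The 3 called were Osmr 1418674_at, with a difference between effects of 1.73 (SE 0.22, adjusted p = 0.00228), Stat3 1426587_a_at, with 1.36 (SE 0.29, adjusted p = 0.0436), and Socs3 1416576_at, with 3.09 (SE 0.64, adjusted p = 0.0411). The Osmr call stood without each of the 12 arrays in turn. That of Stat3 was lost without any 1 of 10 arrays, all but the second A-CREB pool and the first A-CREB control pool, at adjusted p of 0.0535 to 0.145. That of Socs3 was lost without any 1 of 9 arrays, all but these 2 and the first VP16-CREB pool, at 0.0651 to 0.113. With no filter on low values the adjusted p was 0.116 for Stat3 and 0.0954 for Socs3. The remaining Socs3 probe sets were not called in this contrast, with 1.66 for 1456212_x_at (SE 0.39, adjusted p = 0.0767) and 0.56 for 1455899_x_at (SE 0.61, adjusted p = 0.903). The second bright Stat3 probe set, 1460700_at, differed by 1.11 (SE 0.25) with an adjusted p of 0.0662, which became 0.0318 without the second VP16-CREB control pool. The dimmer Osmr probe set, 1418675_at, was not called in this contrast. With an array left out its effects were 0.93 to 1.54 apart (limma adjusted p = 0.124 to 0.575).

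Over the 6 groups, Osmr 1418674_at stood in the order VP16-CREB at 3 weeks (924 ± 124, SD), VP16-CREB at 1 week (566 ± 40.6), A-CREB (384 ± 65.5), A-CREB controls (228 ± 26.0), 1 week controls (193 ± 10.6) and 3 week controls (161 ± 13.5). No neighbouring groups in that order, which is a sort of the observed means, overlapped in range. The dimmer Osmr 1418675_at did not share this. There the ranges of the A-CREB, 1 week control and A-CREB control pools each overlapped that of the group next below. For Stat3 1426587_a_at, the range of the VP16-CREB pools at 3 weeks (1831 ± 288) overlapped that at 1 week, and control pools of the 3 week cohort (767 ± 91.1) were the lowest. Levels across cohorts carry the cohort's own array differences.

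The probe sets whose pattern was most like that of a member were found by Pearson correlation of log2 values, after each cohort's mean was removed, over the 16 arrays. Within these points, pools share cohorts and the transgene difference, so the values describe likeness only. Osmr 1418674_at was closest to Tlr2 (r = 0.986), a receptor for bacterial lipoproteins, S1pr3 (0.985), a receptor for sphingosine 1-phosphate, and Mpeg1 (0.984), a pore-forming protein of macrophages. Stat3 1426587_a_at was closest to Scarb2 (0.971), Ptgfrn (0.948) and Cd44 (0.946). Il6st 1452843_at was closest to Glmp (0.934), Tom1 (0.910) and Usp3 (0.910). The brightest Socs3 probe set, 1455899_x_at, was closest to Csf1 (0.900), Slfn8 (0.896) and Ikzf1 (0.884).

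Further genes of the pathway were described by 1 probe set each, that of highest mean. Among the other gp130 family ligands, 3 of 8 listed genes passed the filter and none was called in any transgene comparison. Ctf1 (cardiotrophin 1) averaged 191 ± 11.7 in VP16-CREB pools at 3 weeks and 143 ± 11.0 in control pools (adjusted p = 0.494). Clcf1, a ligand of the CNTF receptor, averaged 73.4 ± 45.1 in VP16-CREB pools and 78.8 ± 52.4 in control pools (adjusted p = 0.993). Ebi3, which pairs with the interleukin 27 subunit p28, averaged 200 ± 37.2 in VP16-CREB pools and 95.5 ± 51.9 in control pools (adjusted p = 0.528). Oncostatin M itself (Osm 1438767_at) never rose above 97.9 on any array, Il6 not above 34.1 and Il11 not above 79.8, and the remaining 2 were not analysed here. Of 4 other receptors of the family, Cntfr, the CNTF alpha chain, passed the filter, and it differed by 0.35 at 3 weeks (adjusted p = 0.645), 0.07 at 1 week and -0.09 in A-CREB, with no call.

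Among the other JAKs and STATs, 7 of 9 listed genes passed the filter. At 1 week and in A-CREB none was called. At 3 weeks 1 was called higher and 0 lower, beside 3.28% higher and 0.651% lower of all probe sets. The one was Stat6, the transducer of interleukin 4 signals, at 326 ± 51.6 in VP16-CREB pools and 139 ± 2.51 in control pools (difference 1.16, SE 0.16, adjusted p = 0.000807). The median of the 7 was 0.57 at 3 weeks, 0.14 at 1 week and 0.03 in A-CREB.

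Of 14 other negative regulators of the pathway, 13 passed the filter. At 3 weeks 1 of them was called higher and 0 lower, beside 3.28% higher and 0.651% lower of all probe sets. Ptpn6, the phosphatase SHP-1 of blood and microglial cells, stood at 708 ± 158 in VP16-CREB pools and 144 ± 40.5 in control pools (difference 2.23, SE 0.20, adjusted p = 1.54e-05). It was read on 1456694_x_at, whose x marks probes that Affymetrix lists as able to bind other transcripts. The median of this list was -0.01 at 3 weeks, beside -0.01 for all probe sets, -0.04 at 1 week and 0.08 in A-CREB, with no call in these other comparisons. Socs1 lay below the filter, at 1.77 to 68.3.

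Of 24 genes known to respond to STAT3, 20 passed the filter, and at 3 weeks 10 were called higher and 0 lower, beside 3.28% higher and 0.651% lower of all probe sets. The median log2 difference was 0.83 at 3 weeks, 0.27 at 1 week and 0.09 in A-CREB, beside -0.01, 0.02 and 0.00 over all probe sets. Lcn2 (lipocalin 2, an acute phase protein) averaged 500 ± 334 in VP16-CREB pools and 37.0 ± 18.8 in control pools (difference 3.33, adjusted p = 0.0117). The Lcn2 call was lost without the second VP16-CREB pool (adjusted p = 0.0659) or the third control pool (0.0592). Serpina3n, a protease inhibitor of reactive astrocytes, averaged 4709 ± 562 in VP16-CREB pools and 598 ± 61.0 in control pools (difference 2.96, adjusted p = 1.16e-06). Bcl3, a partner of NF-kappaB, averaged 109 ± 9.17 in VP16-CREB pools and 6.53 ± 5.14 in control pools (difference 2.89, adjusted p = 0.000568). Timp1, an inhibitor of matrix metalloproteinases, averaged 402 ± 149 in VP16-CREB pools and 46.4 ± 20.9 in control pools (difference 2.87, adjusted p = 0.00141). The others called were Gfap, Vim, Fos, Icam1, Nfil3 and Il4ra. The Il4ra call was lost without any 1 of 4 of the 6 arrays of the cohort (adjusted p = 0.127 to 0.175).

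Other targets on this list stayed near their control levels at 3 weeks. Bcl2l1 differed by 0.07, Cebpb by 0.03, Pim1 by -0.06 and Bcl6 by -0.18, none of them called. Genes on this list answer signals other than STAT3 too, and several were known to be high in these data when the list was made, so its count is no independent evidence of the pathway's activity. No phosphorylated STAT3 was measured.

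**Figure D4:**
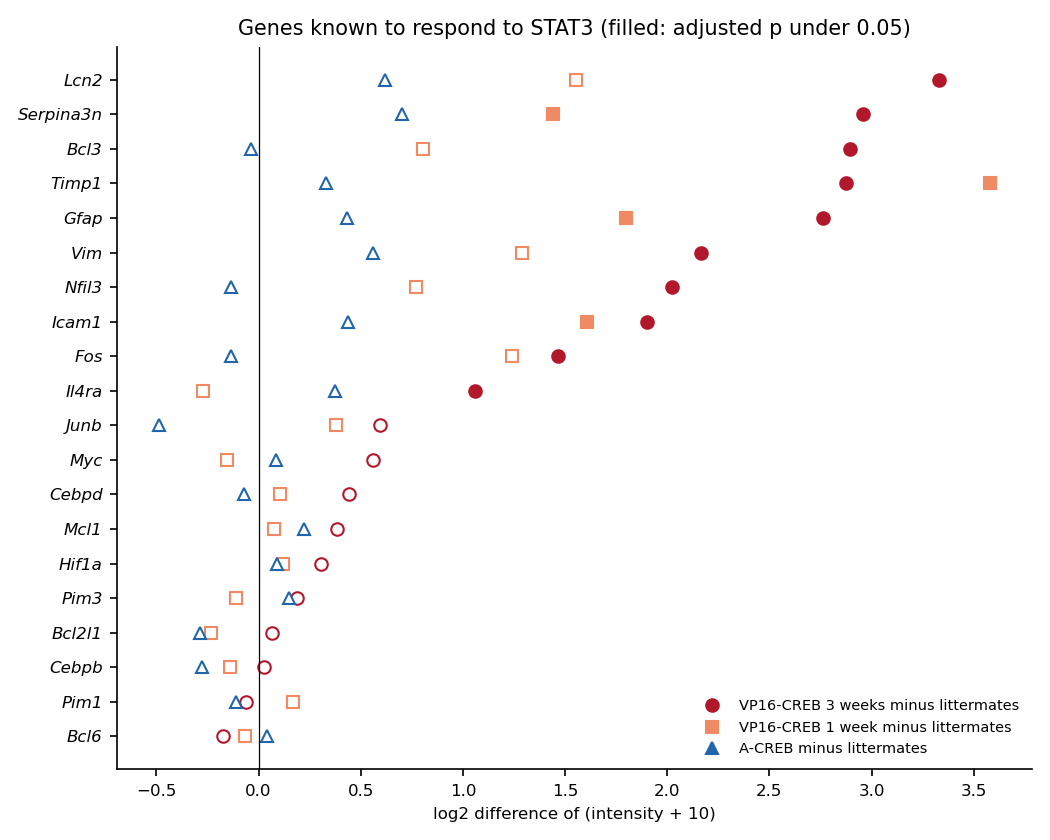
Log2 differences (x axis, transgenic minus littermates, log2 of intensity plus 10) of the 20 tested genes known to respond to STAT3 (y axis) in the 3 cohorts, with filled points for an adjusted p under 0.05. At 3 weeks 10 genes are filled, at 1 week 4, and in A-CREB none.

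At 1 week 4 of these 20 were called higher, beside 0.218% of all probe sets. They were Timp1 (difference 3.58, adjusted p = 0.0140), the astrocyte filament gene Gfap (1.80, adjusted p = 0.0229), the adhesion molecule Icam1 (1.61, adjusted p = 0.0499) and Serpina3n (1.44, adjusted p = 0.0141). The count was 0 with only the compared arrays in the fit and 2 with no filter on low values. It also depended on single pools, with 0 called without the first VP16-CREB pool or the second control pool and 1 without the second VP16-CREB pool. In A-CREB none was called, and Serpina3n, at 1117 ± 67.2 in A-CREB pools and 692 ± 152 in control pools, did not overlap (difference 0.70, adjusted p = 0.733). A-CREB pools lay above all of their control pools for 3.54% of all probe sets. The median of the list in A-CREB was 0.09.

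Most markers of microglia and macrophages were also higher in VP16-CREB pools at 3 weeks. Of the 10 listed, 9 were called higher, all but P2ry12, beside 3.28% of all probe sets. The median log2 difference of the 10 was 1.74. Their summed intensity was 41720 to 48792 in VP16-CREB pools and 11457 to 11800 in control pools. At 1 week 1 of 10 was called higher, beside 0.218% of all probe sets. Of the 10, 7 had an unadjusted limma p under 0.05, beside 5.27% of all probe sets. The list median at 1 week was 0.87, beside 0.02 over all probe sets. The sums were then 20667 to 23940 in VP16-CREB pools and 11280 to 16316 in control pools. In A-CREB 0 were called, with sums of 13114 to 18207 in A-CREB pools and 11791 to 14564 in control pools. Of 9 astrocyte markers, 2 were called higher at 3 weeks, Aqp4 and Mlc1. Their list had a median log2 difference of 0.55, beside -0.01 over all probe sets. At an unadjusted limma p under 0.05 there were 4, beside 13.5% of all probe sets. The astrocyte sums overlapped, at 80950 to 102428 in VP16-CREB pools and 74310 to 92273 in control pools. Of 7 blood leukocyte markers, 6 did not pass the filter, and the one that did, S100a8, read 29.8 to 43.2 in VP16-CREB pools at 3 weeks and 21.9 to 35.4 in control pools. Summed hippocampal neuron markers were 7434 to 7782 in VP16-CREB pools at 3 weeks and 11005 to 11313 in control pools. Markers of neurons in general, endothelium and pericytes, oligodendrocytes and choroid plexus had 0 called members in any of the 3 comparisons. The part of changed cell numbers in the differences of Osmr, Stat3 and Socs3 was not tested.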

How the data were processed

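Hippocampal RNA pools were measured on 16 arrays. The submitters' processing notes name MAS5 as the software behind the deposited intensity of each probe set, and scaling to a common trimmed mean was read from the values. MAS5 subtracts mismatch signals, so low intensities are noisy. No detection call was used, and the number of arrays limits the precision. The deposited intensities were taken to log2 after a pseudocount of 10 was added, without further normalization between arrays. The 64 control probe sets were left out.

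A linear model over the 16 arrays, with 1 coefficient for each group, was fitted in limma 3.58.1 (lmFit and eBayes, two-sided, 10 residual and 3.44 prior degrees of freedom) under R 4.3.3 with data.table (version 1.17.8), and figures were drawn with Python 3.11.15 and matplotlib 3.10.9. In each of the 5 comparisons p-values were adjusted by Benjamini-Hochberg over 27044 probe sets. The code was tested on simulated data with planted differences and independent normal noise. This tests the fit and not the calls made here. Pools are the replicates. Each p-value sets a difference against the spread between pools within groups, estimated over all 16 arrays.

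The named genes are all member probe sets, up to 4 called genes of each pathway list by size of change (or the brightest where none was called), and the 3 probe sets most like a member; further genes were named after their values were seen. Members and lists were chosen with earlier results of these data known. Alternatives were no pseudocount or 25, no filter, quantile or median scaling, a trend with robust variances, a replicate block, only the compared arrays, and each array left out.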

Additional observations from a re-analysis of the deposited data

Results flagged for a closer look

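The effect of VP16-CREB at 3 weeks and that of A-CREB, each against its own littermates, differed by the test of the difference itself for 3 member probe sets. Osmr 1418674_at differed by 2.44 in VP16-CREB mice and by 0.72 in A-CREB mice, so that the effects were 1.73 apart (SE 0.22, limma adjusted p = 0.00228). The dimmer Osmr probe set, 1418675_at, was not called in this contrast (adjusted p = 0.124 to 0.575 with an array left out). Stat3 1426587_a_at differed by 1.24 in VP16-CREB mice and by -0.12 in A-CREB mice, 1.36 apart (SE 0.29, adjusted p = 0.0436). That call was lost with no filter (adjusted p = 0.116), with only the compared arrays (0.0674), with no pseudocount (0.0557), with the replicate block (0.134) and without any 1 of 10 of the 12 arrays (0.0535 to 0.145). Socs3 1416576_at differed by 2.91 in VP16-CREB mice and by -0.18 in A-CREB mice, 3.09 apart (SE 0.64, adjusted p = 0.0411). That call was lost with no filter (adjusted p = 0.0954), with only the compared arrays (0.0692), with no pseudocount (0.0868) and without any 1 of 9 of the 12 arrays (0.0651 to 0.113). The other Socs3 probe sets, with A-CREB differences of 0.36 (1456212_x_at) and 0.85 (1455899_x_at), neither called, had contrasts of 1.66 (adjusted p = 0.0767) and 0.56 (0.903). The contrasts set the 3 week VP16-CREB cohort against the A-CREB cohort, which also differ in dox treatment and median array intensity. The part of these in the difference was not tested.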

How the results depend on the processing

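At 3 weeks the 6 called member probe sets stayed called, and the other 17 uncalled, in all 14 alternatives, and no member result changed sign past the threshold in any comparison. At 1 week, 64 probe sets were called in all, against 32 with no filter, 23 with the replicate block, 0 with only the compared arrays and 16 to 45 with an array left out, and the member count of 1 became 0 with the replicate block (Osmr 1418674_at, adjusted p = 0.0627) and 0 with only the compared arrays (0.278), and ranged from 0 to 1 with an array left out. For A-CREB, the 0 calls in all became 3 with no pseudocount, 2 with a pseudocount of 25 and 0 to 4 with an array left out, none of them a member (0 to 0). For 3 weeks minus 1 week, 1 call in all became 2 with no pseudocount, 0 with a pseudocount of 25, 0 with no filter, 0 with the replicate block, 9 with only the compared arrays, 0 to 5 with an array left out and 23 with quantile normalization, split into 20 higher and 3 lower (87.0% higher) beside 0 higher and 1 lower in the main setting, and members had 0 to 0 calls with an array left out. For VP16-CREB at 3 weeks minus A-CREB, 240 calls became 138 with no filter, 144 with the replicate block and 114 to 218 with an array left out, and the 3 member calls became 1 with no pseudocount, 1 with no filter, 1 with only the compared arrays, 2 with the replicate block, 4 with a trend and robust variances and 1 to 3 with an array left out. At 3 weeks 1062 calls in all became 859 with the replicate block and 584 to 854 with an array left out, where 6 to 6 members were called. Causes were not tested. Deviations of same-numbered pools correlated unevenly, with r of -0.164, -0.228 and 0.218 at 3 weeks, 0.153 for both pairs at 1 week, and -0.0516, 0.407 and 0.265 in A-CREB. With 2 pools per group, the 2 values at 1 week are equal by construction and count as 1. As 3 of the values were below 0.1 and no label says that a number marks shared mice or days, the numbers were not taken as pairs. In settings that left out a pool at 1 week, the spread of the single pool was taken from the other groups. The counts of STAT3-responsive genes under these settings were added after seeing the data, with 8 to 10 called at 3 weeks and 0 to 4 at 1 week, and so were the calls of single list genes. With the replicate block the 4 called at 1 week became 0 (adjusted p = 0.0925 for Timp1, 0.0856 for Gfap, 0.144 for Icam1 and 0.0687 for Serpina3n), and the Stat3 1426587_a_at call against A-CREB was lost (0.134). No scaling moved the median of all probe sets by over 0.1. Dim probe sets, such as those of Lif and Il6ra, lay near the background of the array.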
